A study of Mus musculus with 6 samples.

Results

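The genes described here are 55 named interferon-stimulated genes, interferon receptors, signalling factors and interferon-inducible GTPases. They were followed in mouse medulloblastomas labelled as knockout or wild type for the histone acetyltransferase gene Crebbp. The genes were taken from a fixed list of symbols. A gene was measured where an array feature carried its symbol and no other, and the brightest feature on average stood for a gene that had several. This gave 53 measured members among 22180 genes in all. Gbp2 and Tgtp1 had features that also carry a second symbol and were not used here.

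RNA was taken from 3 tumours of the genotype Math1Cre::CrebbpFl/FlSmoM2Fl/+ (knockout) and 3 of the genotype Math1Cre::SmoM2Fl/+ (wild type for Crebbp), and 1 Affymetrix whole-transcript array was run per tumour. All 6 tumours carry SmoM2, a constitutively signalling Smoothened allele that drives Sonic hedgehog tumours, and a tamoxifen-dependent Cre recombinase driven by Math1 (Atoh1). By the treatment protocol each received 1 mg tamoxifen at postnatal day 5, and tissue was taken at postnatal day 60 from animals in which a tumour was evident. The age label of every sample gives postnatal day 5, which is read here as the day of induction. The Math1 driver acts in the granule neuron lineage of the cerebellum, so microglia, vessels and other host cells in the tissue are not its target. Nothing in the labels ties the tumours to separate animals or litters, so every p-value here speaks of the spread among these 6 samples alone.

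Interferons are secreted alarm proteins of antiviral and antimicrobial defence. Type I interferons bind the receptor pair Ifnar1 and Ifnar2, and type II interferon binds Ifngr1 and Ifngr2. Receptor-bound Janus kinases then activate STAT factors, which in type I signalling are joined by Irf9, a factor of the IRF family. The active factors switch on interferon-stimulated genes in the nucleus through short promoter elements. The factor complex of type I signalling binds the interferon-stimulated response element, and STAT dimers of type II signalling bind the gamma-activated site. In the brain, microglia, astrocytes and endothelial cells are well-known responders.

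Values are log2 levels after robust multi-array averaging (RMA) by the authors, in which arrays share a common scale, and changes are knockout minus wild type. There are no detection calls. Levels are therefore set beside 12 values of transcripts of the other sex (Xist in wild type tumours and Kdm5d, Eif2s3y and Uty in knockout tumours), which ran from 4.31 to 5.74. Those features have other sequences, so this range is a rough guide. Crebbp itself had log2 levels of 11.24, 11.34 and 11.20 in knockout tumours and of 11.80, 11.76 and 11.70 in wild type tumours. Its change was -0.50 (SE 0.09, limma adjusted p over all genes 0.0948), and p was 0.1 in a two-sided exact permutation test, which cannot go lower with groups of this size. Crebbp signal thus stayed far above the guide range in knockout tumours, and the reason was not tested. Xist lay between 12.26 and 12.45 in knockout tumours and between 5.13 and 5.74 in wild type tumours, and the Y-linked genes showed the opposite pattern. All knockout arrays thus carried a female pattern and all wild type arrays a male one, so in every result that follows sex and genotype cannot be told apart. The 14 measured genes listed as markers of granule neuron progenitors, the labelled tumour type's cell of origin, lay above the guide range in all arrays.

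The comparison asks how interferon genes differ between tumours of the knockout and wild type genotypes. No member passed the threshold of 0.05 on the limma p adjusted over all genes. The member with the smallest adjusted p was Socs3 (0.174). Of all genes 0.207% passed, 0.126% as higher and 0.0812% as lower in knockout tumours. At an unadjusted p under 0.05 there were 6 members, 3 higher (Irf3, Stat2 and Eif2ak2) and 3 lower (Socs3, Ifit3 and Gbp9) in knockout tumours. They make 11.3% of the measured members, against 13.8% of all genes (7.24% higher and 6.51% lower). Groups were without overlap in 6 members, 3 higher (Irf3, Stat2 and Ifngr2) and 3 lower (Socs3, Ifit3 and Gbp9), again 11.3%, against 19.6% of all genes (10.2% higher and 9.43% lower). The members' shares were thus not above those of all genes, and the median change of the members was -0.06, against 0.00 over all genes. The median size of change regardless of sign was 0.13 in members and 0.12 over all genes. The members were listed with earlier results of these arrays known, so these counts are descriptions.

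**Figure D1:**
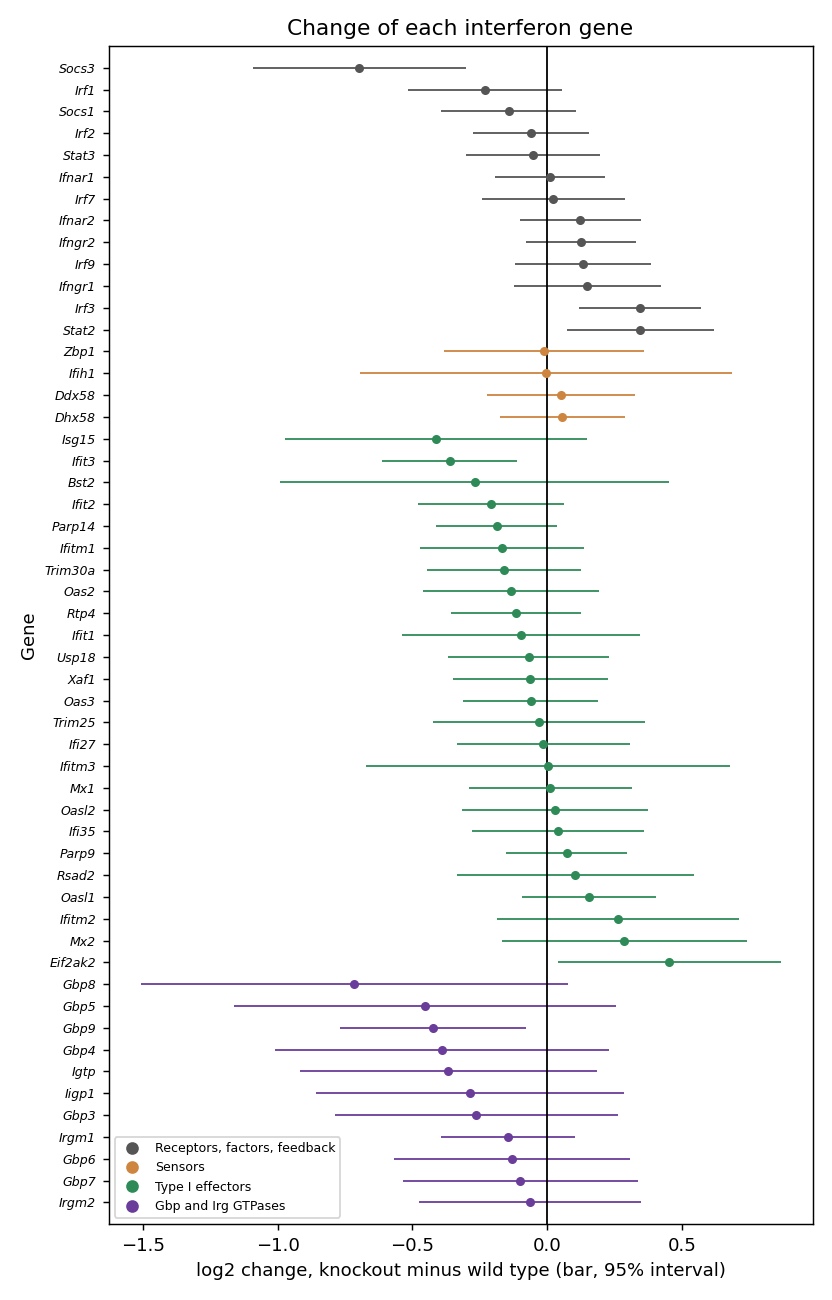
Change of each of the 53 measured interferon genes on the log2 scale, knockout minus wild type (horizontal axis), with the 95% interval from the limma fit over all genes as bars and the gene lists as colours. The points run from -0.72 for Gbp8 to 0.45 for Eif2ak2, and all 11 GTPases lie below 0.

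Among receptors, Ifnar1 and Ifnar2, the subunits that bind type I interferon, differed little between groups. Ifnar1 had log2 levels of 10.54, 10.59 and 10.60 in knockout tumours, against 10.55, 10.66 and 10.49 in wild type tumours. The change was 0.01, with a 95% interval from -0.19 to 0.21. Ifnar2 had a change of 0.12 (interval -0.10 to 0.35), with overlapping groups. Ifngr1, the ligand-binding chain of the type II receptor, had log2 levels of 10.18, 9.91 and 10.01 in knockout tumours, against 9.89, 9.72 and 10.04 in wild type tumours. Its groups overlapped too, with knockout tumour 1 highest and a change of 0.15 (interval -0.12 to 0.42).

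Ifngr2, the accessory chain of the type II receptor, had log2 levels of 9.17, 9.28 and 9.29 in knockout tumours, against 9.05, 9.15 and 9.16 in wild type tumours. All knockout values lay above all wild type values, but the gap between the nearest values was small. The change was 0.13 (SE 0.09, limma adjusted p = 0.574).

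Of the STAT and IRF factors, Stat2 and Irf3 were the members with the highest changes after Eif2ak2. Stat2, the STAT protein that joins Irf9 in the type I complex, had log2 levels of 8.35, 8.31 and 8.30 in knockout tumours, against 8.17, 8.003 and 7.75 in wild type tumours. The knockout values were tightly grouped and the wild type values spread, with wild type tumour 3 lowest. The change was 0.35 (SE 0.12, 95% interval 0.07 to 0.62, limma adjusted p = 0.274). Irf3, a constitutive factor that nucleic acid sensors activate to induce type I interferon, had log2 levels of 8.91, 8.85 and 8.77 in knockout tumours, against 8.54, 8.37 and 8.59 in wild type tumours. The groups did not overlap and differed by 0.35 (SE 0.10, interval 0.12 to 0.57, adjusted p = 0.208).

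The other STAT and IRF members differed less. Irf9, the DNA-binding subunit of the type I complex, had a change of 0.13 (interval -0.12 to 0.39). Irf7, which amplifies type I responses and is itself interferon-induced, had one of 0.02 (interval -0.24 to 0.29). Irf1, an interferon-gamma-induced activator, had log2 levels of 7.27, 7.23 and 7.00 in knockout tumours, against 7.21, 7.40 and 7.57 in wild type tumours, a change of -0.23 (interval -0.52 to 0.06). Its groups overlapped, with wild type tumour 3 highest. Irf2, an antagonist of Irf1, had a change of -0.06. Stat3, a transducer of cytokines of the interleukin-6 family that also induces Socs3, had log2 levels of 9.40, 9.60 and 9.49 in knockout tumours, against 9.68, 9.55 and 9.41 in wild type tumours. Its groups overlapped, and the change was -0.05 (interval -0.30 to 0.20).

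Socs3, a feedback inhibitor of Janus kinase signalling, had the second lowest change of the members. Its log2 levels were 8.01, 7.91 and 7.63 in knockout tumours, against 8.77, 8.67 and 8.20 in wild type tumours. The highest knockout value was under the lowest wild type value. The change was -0.70 (SE 0.17, interval -1.09 to -0.30), a level in wild type tumours 1.62 times that in knockout tumours, with a limma adjusted p of 0.174. A second feature of Socs3, which was not used for the gene, had log2 levels of 6.67, 6.64 and 6.57 in knockout tumours, against 7.36, 8.02 and 7.14 in wild type tumours. The groups did not overlap there either, and in a fit of all 23521 named features the change was -0.88 (SE 0.21, adjusted p = 0.130). When 1 tumour was left out, the change of Socs3 ranged from -0.59 without wild type tumour 1 (adjusted p = 0.357) to -0.87 without wild type tumour 3 (0.0592), and its highest adjusted p was 0.410, without wild type tumour 2. Socs1, the related inhibitor that interferons induce, had log2 levels of 6.83, 6.96 and 6.64 in knockout tumours, against 6.94, 7.03 and 6.90 in wild type tumours. Its groups overlapped, with a change of -0.14 (interval -0.39 to 0.11).

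**Figure D2:**
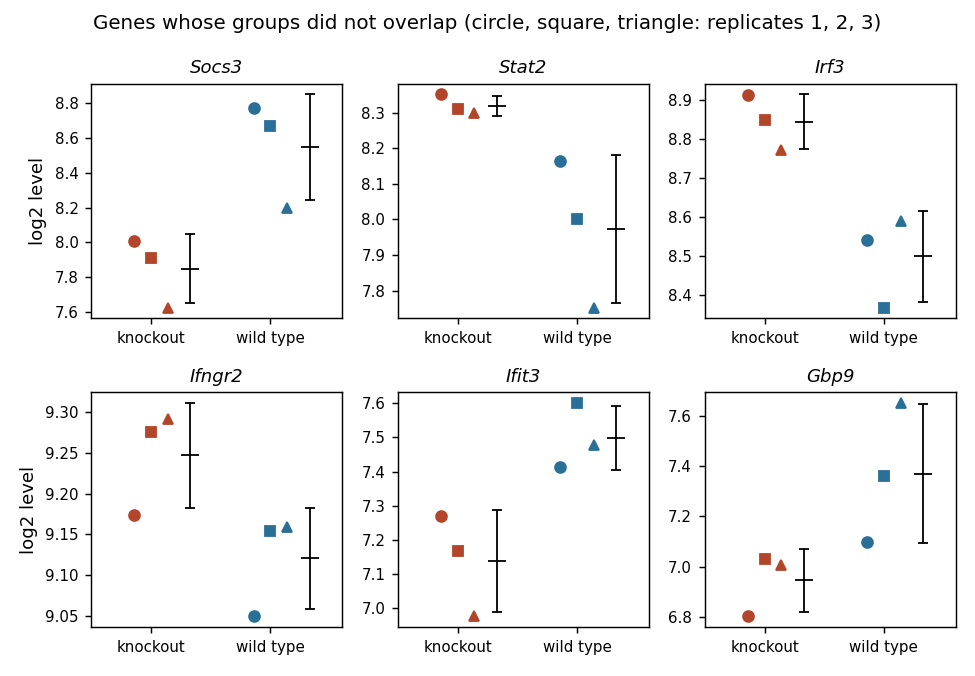
Log2 levels (vertical axes, each with its own range) of Socs3, Stat2, Irf3, Ifngr2, Ifit3 and Gbp9 in each knockout tumour (red, left) and wild type tumour (blue, right), with the mean and SD of 3 tumours beside them in black. These are the 6 members in which no value of a group lies within the range of the other.

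The cytosolic nucleic acid sensors had changes close to 0. Ifih1 (Mda5) and Ddx58 (Rig-I), which detect viral RNA, had changes of -0.00 and 0.05, Dhx58 (Lgp2), a regulator of both, had 0.06, and Zbp1, a sensor of left-handed nucleic acids, had -0.01. Their spread between tumours was wide for Ifih1, with log2 levels of 7.91, 7.18 and 7.14 in knockout tumours, against 7.35, 6.91 and 7.98 in wild type tumours. Knockout tumour 1 and wild type tumour 3 were thus high, and the interval of its change ran from -0.69 to 0.69.

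The 25 type I effectors had changes in both directions. Changes were negative in 15 and positive in 10, with a median of -0.06 and a range from -0.41 to 0.45. The IFIT proteins bind foreign RNA and block its translation. Ifit3 had log2 levels of 7.27, 7.17 and 6.97 in knockout tumours, against 7.41, 7.60 and 7.48 in wild type tumours. The groups did not overlap, with a change of -0.36 (SE 0.11, interval -0.61 to -0.11, adjusted p = 0.230). Ifit3 has a near-identical neighbour, Ifit3b, so its signal may be shared. Ifit2 had a change of -0.21 and Ifit1 one of -0.10, and their groups overlapped.

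Eif2ak2 (Pkr), a double-stranded RNA-activated kinase that shuts down translation, had the highest change of all members. Its log2 levels were 7.49, 7.37 and 6.88 in knockout tumours, against 6.80, 6.58 and 7.00 in wild type tumours. Knockout tumours 1 and 2 were high, while knockout tumour 3 lay within the wild type range. The change was 0.45 (SE 0.18, interval 0.04 to 0.87, limma adjusted p = 0.325). Mx2, an antiviral dynamin-like GTPase, had log2 levels of 5.90, 5.19 and 5.48 in knockout tumours, against 5.35, 4.95 and 5.41 in wild type tumours. Its groups overlapped, with a change of 0.29, and in 5 of the 6 arrays it lay within or below the guide range of transcripts of the other sex.

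Isg15, a ubiquitin-like modifier that is among the most strongly interferon-induced genes, had log2 levels of 6.14, 6.23 and 6.12 in knockout tumours, against 6.37, 6.16 and 7.20 in wild type tumours. Wild type tumour 3 alone was high. The change was -0.41 (SE 0.24, interval -0.97 to 0.15, adjusted p = 0.503), and without that tumour it was -0.10 (adjusted p = 0.693). Usp18, which removes Isg15 from proteins and dampens receptor signalling, had a change of -0.07.

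The IFITM proteins restrict viral entry at membranes. Ifitm3 had log2 levels of 10.05, 10.20 and 9.55 in knockout tumours, against 10.03, 9.30 and 10.46 in wild type tumours. It was low in knockout tumour 3 and wild type tumour 2 and highest in wild type tumour 3, and its change was 0.00 (interval -0.67 to 0.68). Ifitm2 had log2 levels of 8.45, 8.28 and 7.81 in knockout tumours, against 7.95, 7.64 and 8.16 in wild type tumours, a change of 0.26 (interval -0.18 to 0.71). Within each group, the same tumour was lowest for Ifitm2 and Ifitm3. Ifitm1 lay within or below the guide range in all arrays.

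Bst2 (tetherin), which holds budding virus at the cell surface, had log2 levels of 6.83, 7.28 and 6.16 in knockout tumours, against 7.29, 6.49 and 7.29 in wild type tumours. Its low tumours were the same as those of Ifitm3. The 2',5'-oligoadenylate synthetase family, which triggers RNA decay or inhibits viral spread, gave changes of 0.16 for Oasl1, 0.03 for Oasl2, -0.13 for Oas2 and -0.06 for Oas3. Rsad2 (viperin), an antiviral enzyme, had a change of 0.10. The ADP-ribosyltransferases Parp9 and Parp14 had changes of 0.07 and -0.19, and the ubiquitin ligase Trim25, which activates Rig-I, had one of -0.03. Mx1 and Trim30a lay within or below the guide range in all arrays. Ifi27, Ifi35, Rtp4 and Xaf1 had changes between -0.12 and 0.04. The second feature of Ifi35 had one of 0.23 (adjusted p = 0.605 in the fit of all named features), with overlapping groups.

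The guanylate-binding proteins (Gbp) and immunity-related GTPases (Irg) are interferon-gamma-induced proteins that attack the vacuoles of intracellular pathogens. All 11 measured genes had negative changes, with a median of -0.29, against 0.00 over all genes. None passed the threshold in limma, and Gbp9 was the 1 gene under 0.05 before adjustment. With array weights 10 of 11 changes were negative. Changes were negative in 62.3% of all measured members and in 49.1% of all genes.

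Gbp5, a promoter of inflammasome assembly, had log2 levels of 5.21, 5.70 and 5.63 in knockout tumours, against 5.52, 5.65 and 6.72 in wild type tumours. Igtp (Irgm3), a regulator of vacuole targeting, had log2 levels of 6.64, 6.26 and 6.33 in knockout tumours, against 6.61, 6.38 and 7.34 in wild type tumours. Iigp1 (Irga6), an effector that coats parasite vacuoles, had log2 levels of 5.72, 5.90 and 5.82 in knockout tumours, against 5.96, 5.63 and 6.71 in wild type tumours. In each of the 3 genes wild type tumour 3 stood high and the other tumours of both groups overlapped. Gbp5 lay within or below the guide range in the 5 other arrays, and without wild type tumour 3 its change was -0.08 (adjusted p = 0.860).

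Gbp3 had log2 levels of 6.16, 6.41 and 6.18 in knockout tumours, against 6.35, 6.11 and 7.06 in wild type tumours. Gbp4 had log2 levels of 4.55, 5.10 and 5.05 in knockout tumours, against 5.01, 4.95 and 5.91 in wild type tumours, with only wild type tumour 3 above the guide range. Gbp7 had log2 levels of 7.87, 7.82 and 7.66 in knockout tumours, against 7.81, 7.52 and 8.31 in wild type tumours. The same tumour was again the highest for each. The changes of Gbp3, Gbp4, Gbp5, Gbp7, Igtp and Iigp1 were -0.26, -0.39, -0.45, -0.10, -0.37 and -0.29, and each 95% interval includes 0.

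Gbp8 had the lowest change of all members. Its log2 levels were 5.24, 6.15 and 5.38 in knockout tumours, against 6.63, 5.57 and 6.71 in wild type tumours. Here wild type tumours 1 and 3 were high, knockout tumour 2 lay between them and the rest, and the 3 low arrays lay within or below the guide range. The change was -0.72 (SE 0.34, interval -1.51 to 0.08, limma adjusted p = 0.408). Gbp9 had log2 levels of 6.80, 7.03 and 7.01 in knockout tumours, against 7.10, 7.36 and 7.65 in wild type tumours. It was the GTPase whose groups did not overlap, with a change of -0.42 (SE 0.15, interval -0.77 to -0.08, adjusted p = 0.288).

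The other GTPases did not share this picture fully. Irgm2 was highest in wild type tumour 3 (6.18), but knockout tumour 2 (5.99) was next. Irgm1, a master regulator of the family, had log2 levels of 6.67, 6.70 and 6.45 in knockout tumours, against 6.79, 6.82 and 6.64 in wild type tumours, so wild type tumour 3 was the lowest of its group. Gbp6 lay within or below the guide range in all arrays. Irgm2 did so in 4 arrays and Iigp1 in 2. Members of the Gbp family resemble each other closely in sequence, and features of different Gbp genes may share signal.

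**Figure D3:**
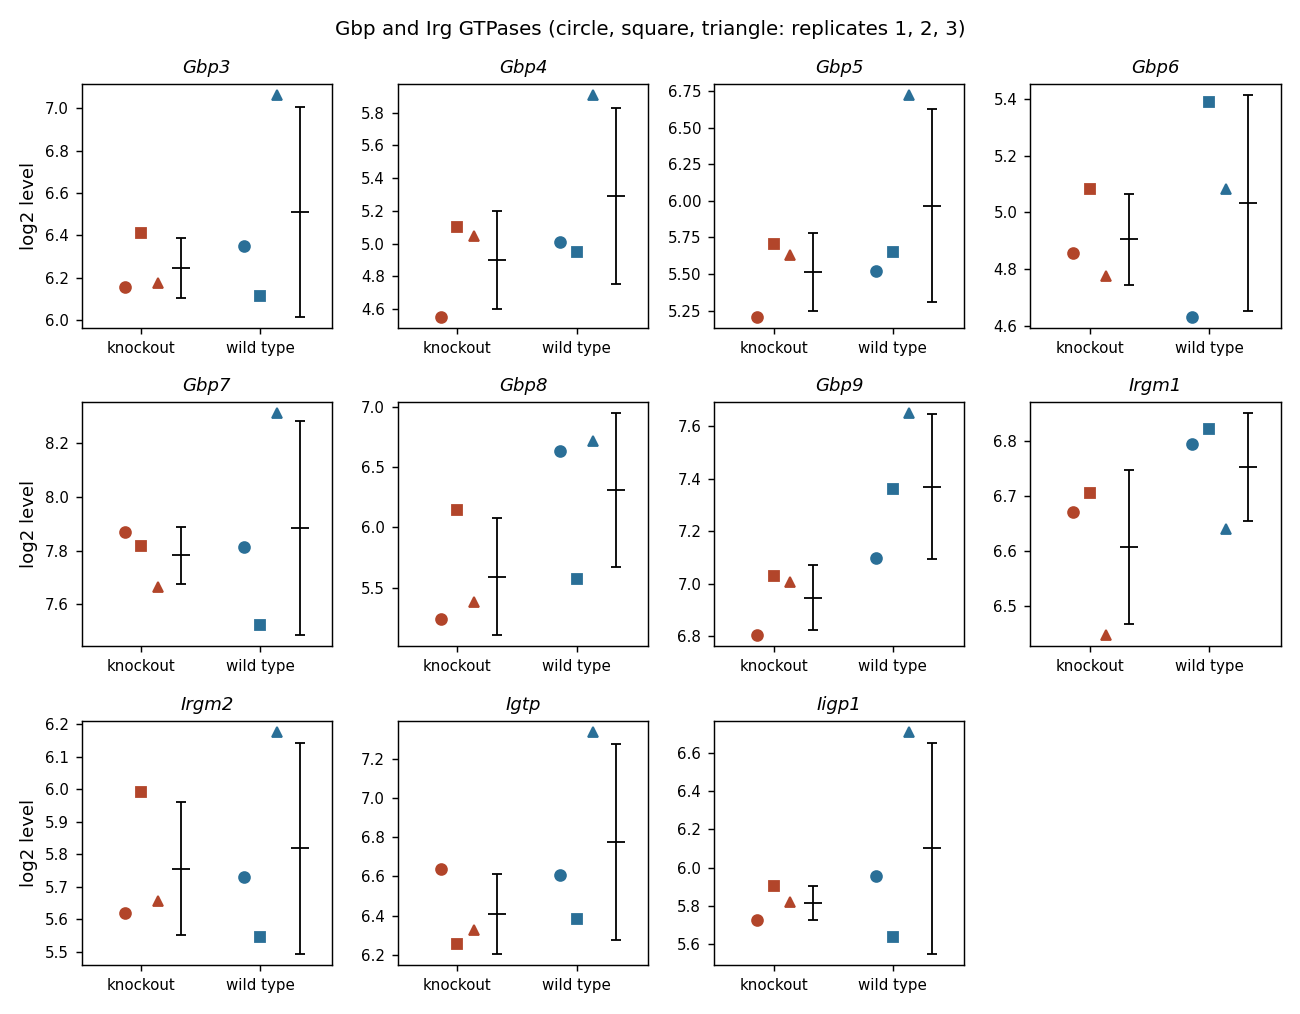
Log2 levels (vertical axes, each with its own range) of the 11 measured Gbp and Irg GTPases in each knockout tumour (red, left) and wild type tumour (blue, right), with the mean and SD of 3 tumours in black. Wild type tumour 3 (triangle) is the highest value in 9 of 11 panels, the exceptions being Gbp6 and Irgm1.

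Wild type tumour 3 was the highest of the 6 in 9 of 11 GTPases, in 3 of 4 sensors, in 9 of 25 type I effectors and in 2 of 13 receptors, factors and feedback genes. Together it was highest in 23 of 53 members (43.4%), against 17.7% of all genes. Knockout tumour 3 and wild type tumour 2 were the lowest in 15 and 16 members, 28.3% and 30.2%, against 19.8% and 17.6% of all genes. These counts were made after the values were seen and describe the tumours.

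Expressed as the median deviation of a list from its genes' means, the GTPases stood at -0.22, 0.00 and -0.17 in knockout tumours, against -0.03, -0.21 and 0.68 in wild type tumours. Outside wild type tumour 3 the groups overlapped. The type I effectors stood at 0.04, -0.03 and -0.13 in knockout tumours, against -0.00, -0.10 and 0.15 in wild type tumours, and the groups overlapped. Without wild type tumour 3 the median change of the GTPases was -0.08, with 7 negative and 4 positive changes, and that of the type I effectors was 0.02. The median change of all members then was 0.02, with 28 positive and 25 negative changes, 0 passed in limma, and 4 members (7.5%) reached an unadjusted p under 0.05, against 16.7% of all genes in that fit.

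**Figure D4:**
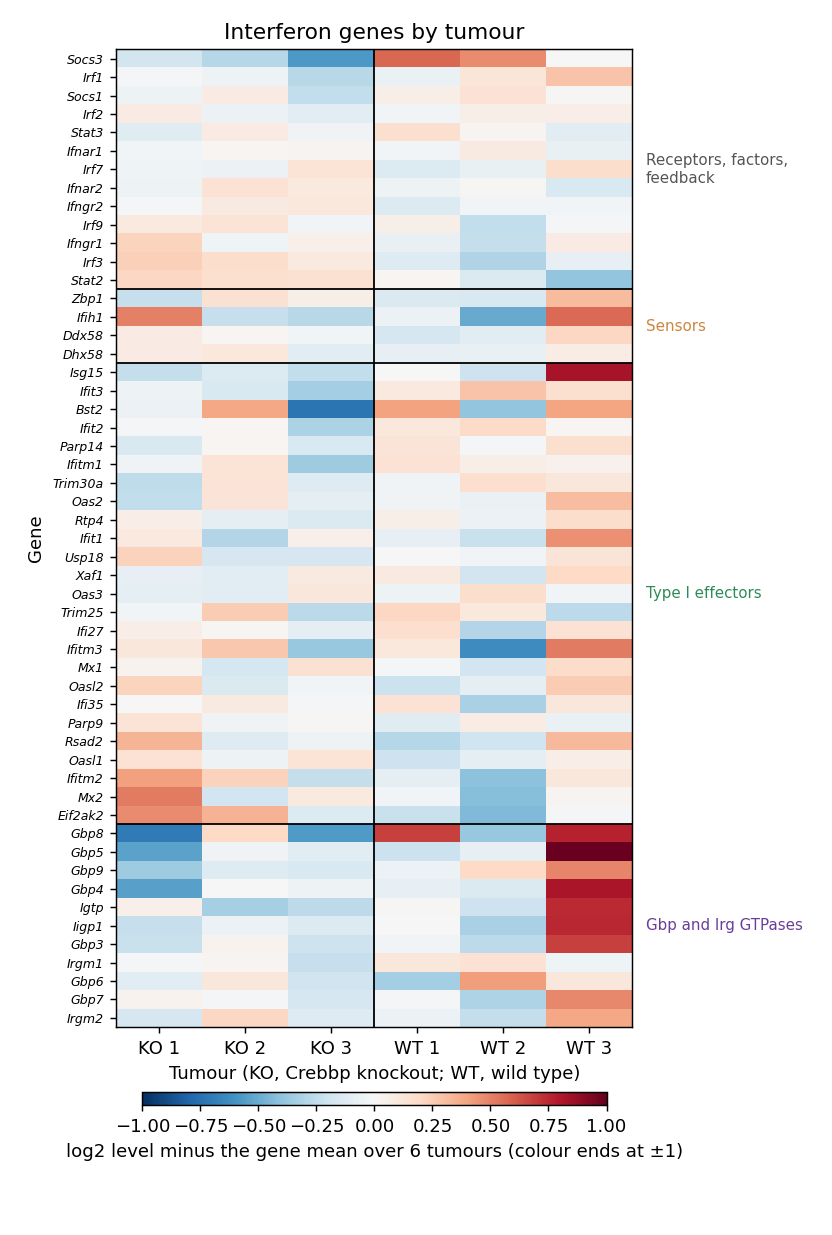
Log2 level of each measured interferon gene minus its mean over the 6 tumours, as colour, with genes as rows grouped by list and tumours as columns (KO, knockout; WT, wild type). The GTPase rows at the bottom are reddest in wild type tumour 3 except for Gbp6 and Irgm1, and Socs3 in the top row is blue in all knockout tumours.

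Marker levels of other cell types varied between tumours too, and no marker passed the threshold in limma. In bulk tissue, fewer cells of a type and less RNA per cell cannot be told apart. Of 19 measured microglia and macrophage markers 17 had negative changes, against 49.1% of all genes, and 8 were lower with no overlap of groups, which 9.43% of all genes were. The markers did not fall alike. Their median change was -0.29, from -0.79 for Fcgr3 to 0.11 for Cd68. P2ry12, Tmem119, Trem2 and Tyrobp had changes of -0.03, -0.06, -0.07 and -0.02, and Ly86 had one of 0.04. The list's summed intensity on the linear scale ran from 10534 to 13869 in knockout tumours and from 14291 to 15864 in wild type tumours, and no marker lay within or below the guide range in all arrays. Its median deviation was 0.25 in wild type tumour 3 and 0.24 in wild type tumour 1, where the GTPases stood at 0.68 and -0.03. Of 12 astrocyte and Bergmann glia markers 10 had positive changes, as did 11290 of all 22180 genes. The other 2, Sox9 and Slc1a2, had changes of -0.34 and -0.16. Groups overlapped in all 12 markers. The summed intensity of this list ran from 22286 to 23433 in knockout tumours and from 13218 to 25038 in wild type tumours. Its median deviation was 0.23, 0.17 and 0.21 in knockout tumours, against -0.38, -0.61 and 0.36 in wild type tumours.

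Lymphocytes are a source of type II interferon. Of 14 measured markers 7 lay above the guide range in all arrays, while 3 (Cd3g, Ms4a1 and Gzma) lay within or below it in all arrays. The summed intensity ran from 966 to 1058 in knockout tumours and from 1102 to 1124 in wild type tumours. This sum weighs the brightest markers most, which were Ptprc, Cd4 and Nkg7, with changes of -0.48, -0.29 and 0.11. Changes were negative in 9 and positive in 5 of the 14, with a median of -0.06. Only 1 was lower without overlap of groups, against 9.43% of all genes. Endothelial markers had a summed intensity of 2193 to 2645 in knockout tumours and 2188 to 2585 in wild type tumours, with Ly6c1 within or below the guide range. The summed intensity of granule neuron progenitor markers ran from 23823 to 27070 in knockout tumours and from 28357 to 31262 in wild type tumours. They were lower without overlap in 9 of 14 and higher without overlap in 3 of 14, against 9.43% and 10.2% of all genes. The 3 were Gli1, Eya1 and Mfap4, a microfibril-associated gene that the list includes, with changes of 0.30, 0.38 and 2.35. The part of these cell types in the levels of interferon genes was not tested.

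**Figure D5:**
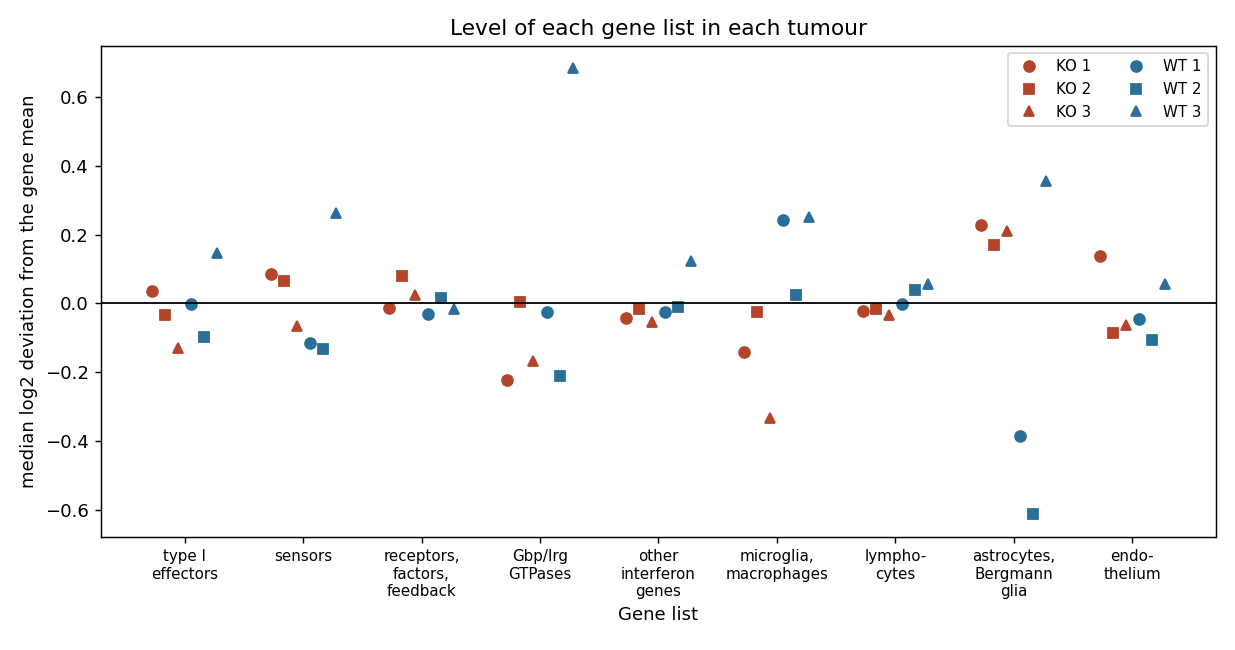
Median log2 deviation of each gene list from its genes' means over 6 tumours (vertical axis), by list (horizontal axis), with 1 point per tumour (red, knockout; blue, wild type; circle, square and triangle, replicates 1 to 3). Wild type tumour 3 lies apart at 0.68 for the GTPases, while microglia and macrophage markers are highest in wild type tumours 1 and 3.

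Of the GTPases that were highest in wild type tumour 3, Gbp4, Gbp8, Gbp9 and Iigp1 had no promoter available. Promoters are shown for the others, for Irgm1, which was not highest there, and for Isg15, Ifit3 and Socs3. They come from RefSeq on build GRCm38.p6, run 5′ to 3′ on the gene's strand and end at the base before the start site. Capitals mark matches to the core of the interferon-stimulated response element, GAAA, any 2 bases and GAAA on either strand, or to the gamma-activated site, TTCNNNGAA, whose letters read the same on both strands. The 2 motifs may overlap. The table holds 2 promoters for Gbp3, and the one with matches is shown.
Gbp3, chr3:142559944-142560043, plus strand: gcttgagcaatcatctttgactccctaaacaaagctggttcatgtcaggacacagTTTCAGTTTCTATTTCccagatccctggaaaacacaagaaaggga
Gbp5, chr3:142496754-142496933, plus strand: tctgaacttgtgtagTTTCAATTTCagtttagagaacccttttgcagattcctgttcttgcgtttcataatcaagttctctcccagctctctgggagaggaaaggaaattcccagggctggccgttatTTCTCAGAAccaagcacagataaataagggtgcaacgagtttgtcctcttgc
Gbp7, chr3:142530216-142530335, plus strand: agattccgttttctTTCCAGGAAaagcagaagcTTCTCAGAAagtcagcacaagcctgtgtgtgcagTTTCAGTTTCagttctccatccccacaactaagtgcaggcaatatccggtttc
Igtp, chr11:58199456-58199555, plus strand: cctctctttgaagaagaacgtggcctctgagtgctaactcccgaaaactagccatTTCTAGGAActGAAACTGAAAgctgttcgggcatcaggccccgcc
Irgm2, chr11:58214877-58214976, plus strand: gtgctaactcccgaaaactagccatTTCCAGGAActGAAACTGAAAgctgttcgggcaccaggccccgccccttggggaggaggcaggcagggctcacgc
Irgm1, chr11:48871421-48871520, minus strand: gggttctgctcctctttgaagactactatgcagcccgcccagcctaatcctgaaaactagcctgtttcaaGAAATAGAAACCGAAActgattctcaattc
Isg15, chr4:156200819-156200918, minus strand: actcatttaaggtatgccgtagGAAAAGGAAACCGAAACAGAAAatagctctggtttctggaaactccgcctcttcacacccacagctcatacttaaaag
Ifit3, chr19:34583359-34583528, plus strand: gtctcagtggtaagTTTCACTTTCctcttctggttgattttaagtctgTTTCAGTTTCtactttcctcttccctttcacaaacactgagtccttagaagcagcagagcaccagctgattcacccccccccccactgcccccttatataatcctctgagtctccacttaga
Socs3, chr11:117969367-117969536, minus strand: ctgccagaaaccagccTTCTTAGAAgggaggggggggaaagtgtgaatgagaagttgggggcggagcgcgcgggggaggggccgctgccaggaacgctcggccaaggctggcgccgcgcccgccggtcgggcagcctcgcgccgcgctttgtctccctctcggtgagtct

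The neighbours Igtp and Irgm2 share a stretch in which 2 bases separate a gamma-activated site from a response element core. The promoter of Tgtp1 has the same spacing, and that of Bst2, a type I effector, has one of 3 bases. Irgm1 holds overlapping response element cores and no gamma-activated site in its window, and Socs3 holds a gamma-activated site and no response element core. Over windows of 250 bases before to 50 bases after the start site, 40 of the 55 members had a promoter in the table. The start site was the outermost base of the RefSeq gene in 27 of the 45 member promoters. The response element core was present in 8 of 9 GTPase promoters and in 11 of 19 type I effector promoters. It was present in 3 of 15 promoters of receptors, factors and feedback genes. Of all 32851 promoters 3.44% held it. The gamma-activated site was present in 5 of 9 GTPase promoters, 5 of 19 type I effector promoters, 5 of 15 promoters of receptors, factors and feedback genes and 8.3% of all promoters. Both motifs stood together in 5 of 9 GTPase promoters, 3 of 19 type I effector promoters and 0.454% of all promoters. The GTPase promoters include those of Gbp2 and Tgtp1, whose levels were not used, and none of Gbp4, Gbp6, Gbp8, Gbp9 or Iigp1. A match to these letters describes the sequence and says nothing about binding in these tumours.

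A further 64 genes of the pathway that are not among the 55 were listed, and 53 were measured. In limma 0 passed the threshold, 9 (17.0%, against 13.8% of all genes) were under 0.05 unadjusted, and the groups did not overlap in 14 (26.4%, against 19.6% of all genes), 6 higher and 8 lower in knockout tumours. Cxcl10, an interferon-induced chemokine that draws T cells, had log2 levels of 6.14, 6.17 and 6.13 in knockout tumours, against 7.42, 6.78 and 7.45 in wild type tumours. The groups did not overlap, and its adjusted p over all genes was 0.0816. Mavs, the mitochondrial adaptor of the RNA sensors, had log2 levels of 9.31, 9.14 and 8.92 in knockout tumours, against 8.44, 8.42 and 8.76 in wild type tumours. Its groups did not overlap either, with a change of 0.58 (SE 0.14, adjusted p = 0.162). Cxcl10 had a change of -1.07 (SE 0.18) and passed the threshold without wild type tumour 2 (-1.29, adjusted p = 0.0164) and with a trended and robust variance model (0.0382). Tlr3, an endosomal sensor of double-stranded RNA, had log2 levels of 7.90, 7.81 and 7.88 in knockout tumours, against 7.08, 7.15 and 8.20 in wild type tumours. Wild type tumour 3 was the highest of all and the other wild type tumours the lowest. Its change was 0.39 (SE 0.27, adjusted p = 0.576), and without wild type tumour 3 it was 0.75 (adjusted p = 0.042).

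Cmpk2, a mitochondrial nucleotide kinase, had log2 levels of 8.82, 8.39 and 8.59 in knockout tumours, against 8.13, 8.02 and 8.29 in wild type tumours. The change was 0.45 (adjusted p = 0.225). Aim2, an inflammasome sensor of cytosolic DNA, had log2 levels of 7.12, 7.21 and 6.87 in knockout tumours, against 7.70, 7.28 and 8.28 in wild type tumours, with wild type tumour 3 highest and a change of -0.69 (adjusted p = 0.276). Tor3a had a change of 0.30, and Oas1g, with one of -0.50, lay within or below the guide range in all arrays. Of the ligand genes, Ifnb1 lay within or below the guide range in all arrays, while Ifna4 lay above it in all arrays. The range is a rough guide, and a level above it does not by itself show that a gene is expressed. The median level of all genes, 7.42, was above it too. Ifna4 had log2 levels of 7.33, 7.56 and 7.78 in knockout tumours, against 7.89, 7.39 and 7.88 in wild type tumours. Its groups overlapped, with a change of -0.16 (limma adjusted p = 0.729). Ifng had log2 levels of 5.89 to 5.95 in knockout tumours, against 5.79 to 6.39 in wild type tumours. The receptor kinases Jak1 and Tyk2 had changes of 0.03 and 0.04. Jak2 had log2 levels of 10.05, 10.16 and 10.09 in knockout tumours, against 10.28, 10.27 and 10.24 in wild type tumours. Its groups did not overlap, with a change of -0.16 (SE 0.08, adjusted p = 0.438).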

How the data were processed

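RNA of 6 tumours was measured with 1 array each, grouped by sample title. The table the authors deposited is on a log2 scale. The submitters' processing notes name RMA and oligo, with no version. RMA corrects background, equalises array distributions and summarises probes, which compresses changes of dim features. The table held 41345 features, of which 23521 had 1 gene symbol, 1814 had several and 16010 were unnamed here. After 1 feature per gene was kept, 22180 genes went into limma 3.58.1 (R 4.3.3) with no further normalization (linear model, eBayes without trend, two-sided, Benjamini-Hochberg over all genes, threshold 0.05). The fit was run on simulated data with independent noise as a check of its code, and its power for small changes is not given here. Precision is limited by the number of arrays.

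The members and lists were chosen with earlier results of these data known, so no test was made over a list. Values in every array are given for members whose groups did not overlap, the 5 with the largest rise, the 5 with the largest fall, the 5 with the widest range and the 5 with the highest mean, and for others chosen after their values were seen. Of the other pathway genes the 6 with the smallest p are named, and Tlr3, Jak1, Jak2, Tyk2, Ifng, Ifnb1 and Ifna4 were chosen after their values were seen. Chromosomes, promoters and names come from RefSeq, GRCm38.p6, the array's build being unstated in the labels. Same-numbered tumours of the groups were checked for pairing. Their deviations from the group means correlated across genes at -0.03, 0.05 and 0.10, and they were not treated as pairs. Alternatives covered the scaling between arrays, removal of dim genes, a trended and robust variance, array weights, averaging of a gene's features, a replicate block, sex-linked genes and leaving out each array.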

Additional observations from a re-analysis of the deposited data

How the results depend on the processing

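No member passed the threshold under any alternative run, and the smallest adjusted p of a member ranged from 0.0592 (Socs3 without wild type tumour 3) to 0.319 (Socs3 without knockout tumour 1). The number of genes past the threshold over all genes, 46, was 137 with a trended and robust variance model, 77 without the dimmest 25% of genes and 12 with the replicate block, and ranged from 4 to 128 when a tumour was left out. The replicate block changed no call of a member, with 5 members at an unadjusted p under 0.05. The same-numbered tumours did not deviate together, with correlations of at most 0.10.

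The median change of the GTPases stayed negative, from -0.46 without wild type tumour 2 to -0.08 without wild type tumour 3, and was -0.18 with array weights, which gave wild type tumour 3 the lowest weight (0.605). The median change of receptors, factors and feedback genes, 0.02, was 0.0604 after another quantile normalization, -0.01 with arrays centred on the median (6 positive and 7 negative, against 8 and 5), 0.12 without the dimmest 50% of genes and 0.0006 to 0.0797 when a tumour was left out. That of the type I effectors ranged from -0.12 to 0.02 and that of the sensors from -0.04 to 0.16 when a tumour was left out, so neither kept its sign. Without the dimmest 50% of genes 16 members remained, too few sensors and GTPases for a median. Crebbp passed the threshold with the trended and robust variance model (adjusted p = 0.0234) and without the dimmest 50% of genes (0.0486). The causes were not tested.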
